A study of Mus musculus with 9 samples.

Results

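The 9 genes described here encode the Camsap proteins (*Camsap1*, *Camsap2* and *Camsap3*), 3 kinds of tubulin (*Tuba1a*, *Tuba1b*, *Tubb5*, *Tubb2b* and *Tubg1*) and the microtubule-associated protein *Map1b*. They were chosen by gene symbol around *Camsap1*, which was selected because its entry rose in double KO lenses, so its values are given as a description without a test. All 9 symbols were found once each among the 22013 entries of the table, of which 15820 carry a symbol. RNA of mouse lenses at embryonic day E16.5 was sequenced in 9 libraries, 3 from each of 3 genotypes, with 8 lenses pooled in each library. Control embryos were *Mafg*+/-:*Mafk*+/-, compound knockout (compound KO) embryos were *Mafg*-/-:*Mafk*+/- and double knockout (double KO) embryos were *Mafg*-/-:*Mafk*-/-. The alleles are germline knockouts of 2 small Maf transcription factors, so every tissue of the embryo carried them, and the controls were heterozygous for both. Mice of the study were kept on an ICR background. Values are read counts scaled to the size and composition of each library (normalized CPM).

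Microtubules are hollow polymers of alpha- and beta-tubulin dimers with a fast-growing plus end and a slow minus end. Gamma-tubulin complexes nucleate new microtubules, mainly at centrosomes, whereas Camsap proteins bind free minus ends and keep them from losing subunits, which lets cells build arrays away from the centrosome. In lens fiber cells, which elongate greatly and later lose their organelles, microtubules run along the length of the cell.

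The small Maf proteins act as dimers with partners on DNA elements that hold TGACNNNGC, and the *Camsap1* start site was examined for that reason. The first 30 bases of the RefSeq *Camsap1* transcript lie at chr2:25873265-25873294 (GRCm39, minus strand) and are shown 5′ to 3′, with capitals on the match to TGACNNNGC at bases 13 to 21 from the start site.
Camsap1: agtgcgcctgcgTGACGCGGCggcggcgcg
Promoters of 300 bases, 250 before the start site and 50 from it on, were in the table for 6 of the 9 genes. TGACNNNGC was matched on either strand in *Camsap1* and, 91 bases before the start site, in *Tuba1a*, and in 12.4% of all 32851 RefSeq promoters. TGCTGA was matched in *Camsap2*, 148 bases before the start site, and in 19.5% of all promoters. TGAGTCA was found in none of the 6 and in 5.2% of all promoters. A match is a description of letters and not of binding.

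The alpha-tubulin genes *Tuba1a* and *Tuba1b* are near copies, so the ability to assign reads to one or the other bears on their values. Over the whole coding sequence the pair was identical at 1330 of 1353 bases (98.3%). Of the windows of the *Tuba1b* coding sequence as long as a read, 35.4% also occurred in that of *Tuba1a*. A larger share of the *Tuba1b* windows, 63.5%, occurred in *Tuba1c*. In *Tubb2b*, 43.7% of the windows occurred in *Tubb2a*, while no window of *Tubb5* occurred in *Tubb2b*. *Tuba1a* and *Tuba1b* lie side by side on chromosome 15 and both overlap the gene model *Gm49450* on the same strand. Within the coding sequence, the values of *Tuba1a*, *Tuba1b* and *Tubb2b* are therefore uncertain as to which copy the reads came from. Untranslated sequence and the mates of paired reads were not compared, so the share of reads concerned is unknown. The canonical *Tubb2b* transcript has 5794 bases, of which 1335 are coding.

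The genotype labels and the tissue were checked first. *Mafg* was between 112.9 and 134.5 in control libraries and between 10.1 and 26.2 in all knockout libraries, and *Mafk* was between 0.0 and 0.6 in double KO libraries and between 4.3 and 6.3 in the others. Of 14 lens markers, 12 were in the table, and their sum was between 124200 and 146200 in control libraries. From lowest to highest, it was 46320, 111700 and 113000 in compound KO and 88730, 116600 and 127000 in double KO libraries. Only the highest of the knockout sums reached the control range. Compound KO replicate 1 stood apart, with a lens marker sum of 46320 and a total of 728036 against 977149 to 1131184 elsewhere. In that library the summed markers of neurons and neural retina reached 1319 against 42.8 to 354.4 in the others, those of periocular mesenchyme reached 2246 against 17.6 to 224.9, and those of retinal pigment epithelium reached 685.3 against 3.3 to 32.4. Summed markers of erythroid cells were 1171 to 1640 in control, 1426 to 2839 in compound KO and 2340 to 3879 in double KO libraries. In the same order, those of periocular mesenchyme were 17.6 to 51.6, 61.6 to 2246 and 23.1 to 224.9. Those of skeletal muscle were 2.4 to 4.6 in control, 19.6 to 338.1 in compound KO and 26.2 to 84.2 in double KO libraries. In pooled whole lenses, fewer cells of a type and less RNA per cell cannot be told apart.

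*Camsap1* (chromosome 2, 25816850 to 25873322, minus strand), which encodes a protein that tracks growing minus ends, had the largest ratio of highest to lowest library of the 9 genes, although its lowest value, 0.1, is the smallest step of the table. Its normalized CPM was 1.8, 1.4 and 0.3 in the control libraries, 2.7, 0.1 and 28.9 in the compound KO libraries and 51.9, 20.2 and 44.8 in the double KO libraries. All double KO libraries lay above all control libraries, and compound KO replicate 3 lay with the double KO libraries while the other compound KO libraries lay with the controls. The log2 fold change was 4.17 in double KO against control lenses, 1.27 in compound KO against control lenses and 2.91 in double KO against compound KO lenses. Without compound KO replicate 3, the value for compound KO against control lenses was −0.03. These values chose the gene and carry no test.

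The other Camsap genes differed far less between libraries. *Camsap2* (chromosome 1, 136195858 to 136273874), whose protein stays on the minus-end stretch and stabilises it, was 48.4, 43.9 and 45.8 in control, 71.4, 48.1 and 49.7 in compound KO and 48.9, 47.4 and 49.8 in double KO libraries. The high value was that of compound KO replicate 1, and the 8 other libraries lay between 43.9 and 49.8. *Camsap3* (chromosome 8, 3637293 to 3659077), whose protein anchors minus ends at the apical side of epithelial cells, was 11.5, 11.8 and 11.5 in control, 25.9, 15.6 and 14.3 in compound KO and 14.7, 14.1 and 14.4 in double KO libraries. Every knockout library lay above every control library. Such a lack of overlap with control was found for 15.8% of all entries in double KO and 23.9% in compound KO libraries. The differences did not pass the test: the log2 fold change of *Camsap3* was 0.29 ± 0.07 (SE) in double KO (adjusted p = 0.264, limma) and 0.59 ± 0.23 in compound KO lenses (adjusted p = 0.481, limma), and 0.34 in compound KO lenses without replicate 1 (adjusted p = 0.325, limma). *Camsap2* differed by 0.08 ± 0.06 in double KO (adjusted p = 0.719, limma) and by 0.27 ± 0.17 in compound KO lenses (adjusted p = 0.498, limma), and by 0.09 in the latter without replicate 1.

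**Figure D1:**
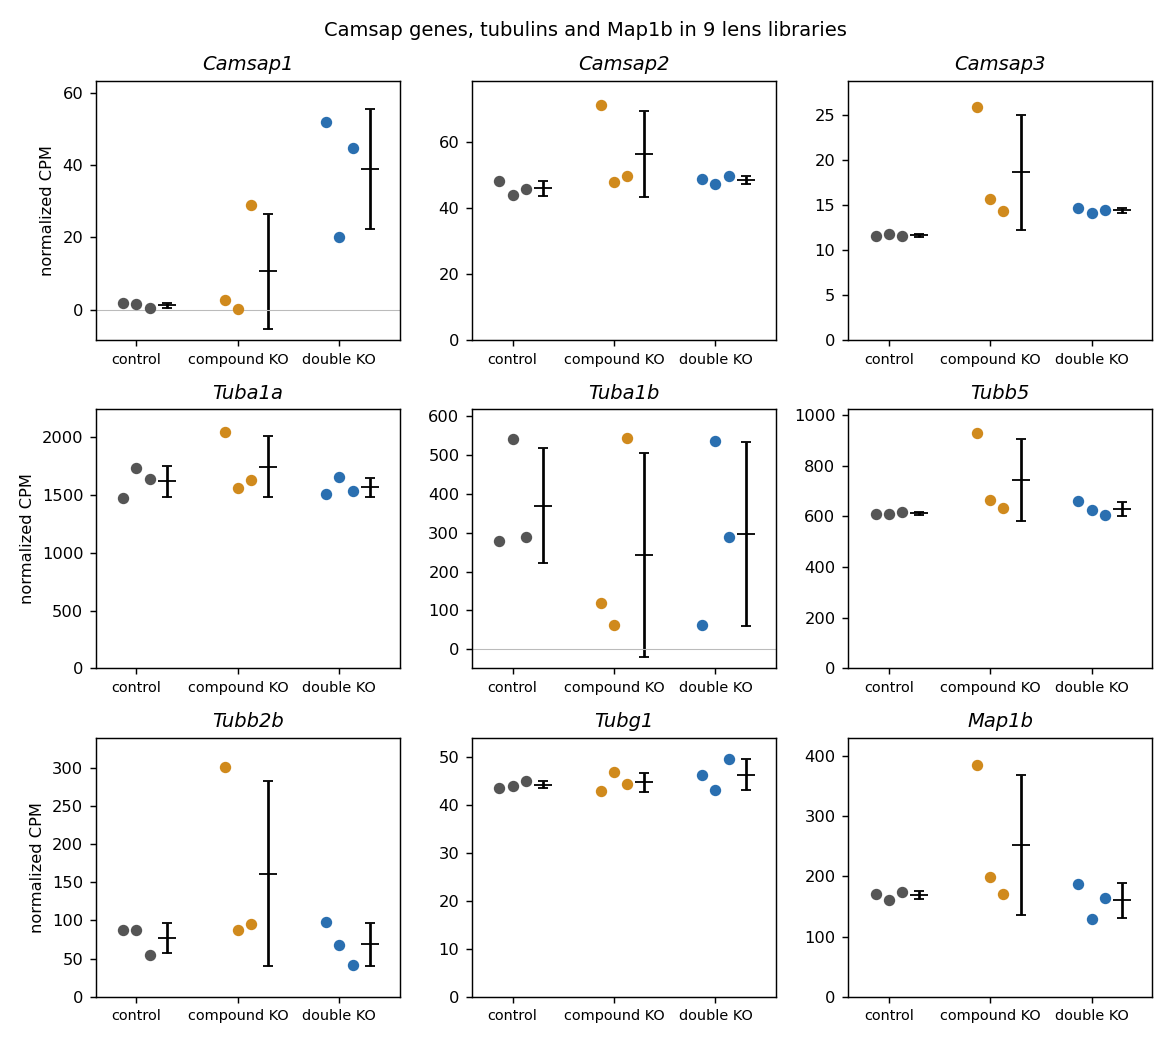
Normalized CPM of the 9 genes in each library (points), by genotype, with the mean and SD of the 3 libraries of each group beside them on a linear axis. *Camsap1* lay between 20.2 and 51.9 in double KO libraries and between 0.3 and 1.8 in control libraries, and 1 compound KO library, replicate 1, holds the highest value of *Camsap2*, *Camsap3*, *Tuba1a*, *Tubb5*, *Tubb2b* and *Map1b*.

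Among the alpha-tubulins, *Tuba1a* (chromosome 15, 98847714 to 98851589) was steady and *Tuba1b* (chromosome 15, 98827738 to 98832493) was not. *Tuba1a* was 1478.3, 1737.9 and 1638.8 in control, 2046.0, 1561.5 and 1628.4 in compound KO and 1505.0, 1656.7 and 1535.4 in double KO libraries, and the groups overlapped. Its difference in double KO lenses was −0.05 ± 0.08 on the log2 scale (adjusted p = 0.896, limma), and it turned to 0.02 with scaling by library size only. *Tuba1b* was 278.4, 539.9 and 289.6 in control, 118.5, 63.4 and 542.8 in compound KO and 63.6, 535.7 and 287.9 in double KO libraries. Each group held 1 library near 540 and others far below it, so the spread within groups was as large as that between them. The log2 fold change of *Tuba1b* was −0.71 ± 0.80 in double KO (adjusted p = 0.829, limma) and −1.13 ± 0.81 in compound KO lenses (adjusted p = 0.526, limma).

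Of the beta-tubulins, *Tubb5* (chromosome 17, 36144809 to 36149198), which is expressed in most dividing cells, lay between 607.7 and 617.7 in control, between 633.6 and 927.9 in compound KO and between 603.2 and 659.2 in double KO libraries. *Tubb2b* (chromosome 13, 34307245 to 34315143), a beta-tubulin abundant in developing neurons, was 88.1, 88.1 and 54.3 in control, 300.7, 88.0 and 95.0 in compound KO and 97.4, 67.4 and 41.6 in double KO libraries. Compound KO libraries lay above all control libraries for *Tubb5*, beside 23.9% of all entries without overlap, but not for *Tubb2b*. Against control lenses, *Tubb5* differed by 0.04 ± 0.05 in double KO (adjusted p = 0.838, limma) and 0.26 ± 0.16 in compound KO lenses (adjusted p = 0.499, limma), and *Tubb2b* by −0.20 ± 0.35 (adjusted p = 0.900, limma) and 0.85 ± 0.52 (adjusted p = 0.493, limma). Without compound KO replicate 1, the compound KO values were 0.09 for *Tubb5* and 0.28 for *Tubb2b*.

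*Tubg1* (chromosome 11, 101010744 to 101017251), the gamma-tubulin that nucleates microtubules, lay between 43.0 and 49.7 over all libraries, with the lowest coefficient of variation of the 9 genes (4.86%). Without compound KO replicate 1 it was 4.81%, and *Tubb5* (3.81%) and *Camsap2* (4.23%) were lower. It differed by 0.06 ± 0.07 in double KO (adjusted p = 0.810, limma) and 0.02 ± 0.07 in compound KO lenses (adjusted p = 0.925, limma). *Map1b* (chromosome 13, 99557954 to 99653137), a lattice-binding protein of growing axons, was 170.6, 161.0 and 173.6 in control, 384.7, 199.3 and 170.1 in compound KO and 187.2, 129.8 and 163.1 in double KO libraries. The groups overlapped, and *Map1b* differed by −0.09 ± 0.14 in double KO (adjusted p = 0.881, limma) and 0.48 ± 0.31 in compound KO lenses (adjusted p = 0.500, limma). Without compound KO replicate 1 the latter was 0.13.

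Of the 8 genes other than *Camsap1*, 0 were called in double KO against control lenses (an adjusted p no larger than 0.05 with a 1.5-fold change, limma), where 0.361% of 14122 entries were called, and 0 passed the same limits before adjustment, where 2.83% did. *Camsap3* alone of the 8 did not overlap between the groups, beside 15.8% of all entries. In compound KO against control lenses, 0 of the 8 were called beside 0.0% of 14348 entries, 1 (*Camsap3*) passed the unadjusted threshold beside 5.34%, and 2 (*Camsap3* and *Tubb5*) did not overlap beside 23.9%. When double KO was compared with compound KO, 0 of the 8 were called beside 0.0139% of 14402 entries, 0 passed the unadjusted threshold beside 3.06%, and 0 did not overlap beside 15.6%. With 8 genes, none of these counts stood clear of the share over all entries.

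Per kilobase of the canonical GENCODE transcript, the control level was 895 ± 72.5 (SD, n = 3) for *Tuba1a*, 230.0 ± 2.17 for *Tubb5*, 110.0 ± 44.0 for *Tuba1b* and 24.2 ± 0.418 for *Tubg1*. It was 14.2 ± 0.553 for *Map1b*, 13.3 ± 3.37 for *Tubb2b*, 5.92 ± 0.290 for *Camsap2*, 2.61 ± 0.0389 for *Camsap3* and 0.146 ± 0.0969 for *Camsap1*, and in that order only *Map1b* and *Tubb2b* were neighbours closer than their spread. In double KO lenses the level of *Camsap1* was 4.86 ± 2.08 per kilobase, between the 3.23 ± 0.0674 of *Camsap3* and the 6.26 ± 0.156 of *Camsap2*, so the spread of *Camsap1* reached both. Whether each entry covers the whole canonical transcript is not known, so these levels and their order are uncertain, that of *Camsap1* included.

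The paper describes transcript-level counts, but the 15820 entries with a symbol hold 15803 different symbols, nearly 1 entry for each. A further 6193 entries carry no symbol. For each gene of interest, the 4879 entries without a symbol and with a mean of at least 1 were searched for the one whose sum with the gene varied least, measured as the ratio of the SD of the sum to the SD of the gene alone over the 9 libraries. For *Camsap1* that entry was 37.5, 40.2 and 39.4 in control, 44.9, 41.9 and 12.9 in compound KO and 0.0, 18.4 and 0.0 in double KO libraries. It was high where *Camsap1* was low and low where *Camsap1* was high, library by library, with a Pearson correlation of −0.981 over 9 libraries as a description. The sum was 39.3, 41.6 and 39.7 in control, 47.6, 42.0 and 41.8 in compound KO and 51.9, 38.6 and 44.8 in double KO libraries, so that double KO libraries overlapped both other groups, while all compound KO libraries lay just above all controls (41.8 against 41.6), and the log2 fold change in double KO against control lenses went from 4.17 for the entry with the symbol to 0.15 for the sum. The ratio was 0.212, the next entry gave 0.458, and 3.02% of 14122 genes searched the same way had a ratio as low. Without compound KO replicate 1 the same entry was found, with a ratio of 0.202 and 1.94% of genes as low. Because the entry was picked for running opposite to *Camsap1*, the sum is a description without a test, and because it carries no identifier, whether both entries come from the *Camsap1* locus cannot be told from the table. Why the 2 entries trade places between libraries was not tested.

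For *Tuba1b* the same search gave an entry that offset it less well than that of *Camsap1*. The entry without a symbol was 234.8, 0.2 and 254.2 in control, 725.0, 601.4 and 0.3 in compound KO and 595.8, 0.4 and 217.7 in double KO libraries, and the sum with *Tuba1b* was 513.2, 540.1 and 543.8, then 843.5, 664.8 and 543.1, then 659.4, 536.1 and 505.6. The 3 libraries with *Tuba1b* near 540 were those with the entry near 0. The ratio was 0.553 over 9 libraries, which 81.7% of genes matched, and 0.313 without compound KO replicate 1, which 10.2% matched, and the log2 fold change in double KO lenses went from −0.71 to 0.08. For *Camsap2*, *Camsap3*, *Tuba1a*, *Tubb5*, *Tubb2b*, *Tubg1* and *Map1b*, a different entry was found once compound KO replicate 1 was left out. Over 9 libraries their ratios went from 0.230 (*Camsap2*, which 4.63% of genes matched) to 0.491 (*Tubg1*), all below that of *Tuba1b*. Without compound KO replicate 1 they went from 0.302 (*Camsap3*, which 8.76% matched) to 0.609 (*Tuba1a*).

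**Figure D2:**
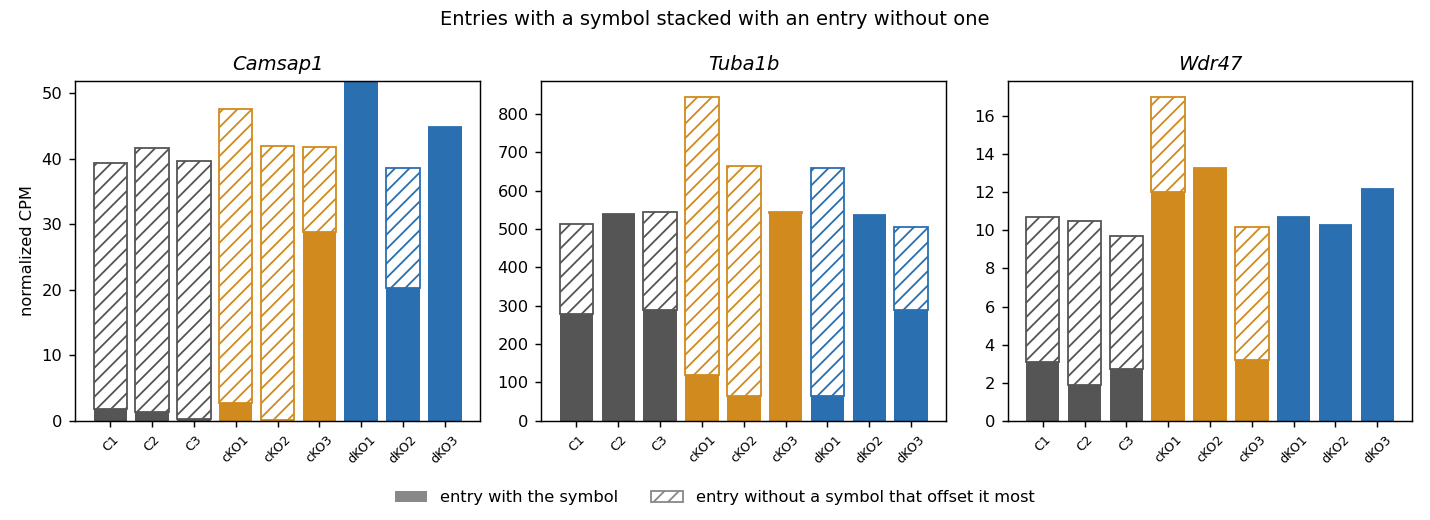
Normalized CPM of *Camsap1*, *Tuba1b* and *Wdr47* (filled bars) stacked with the entry without a symbol that offset each most (hatched bars), in control (C), compound KO (cKO) and double KO (dKO) libraries 1 to 3. The filled part of *Camsap1* goes from at most 1.8 in control to at least 20.2 in double KO libraries, while the stacked height stays between 38.6 and 51.9.

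The genes most like *Camsap1* over the 9 libraries were *N4bp2* (Pearson r = 0.979), *Gopc* (0.966), *Pddc1* (0.962), *Chd2* (0.922) and *Ehbp1* (0.922), among 10390 entries with a symbol and a mean of at least 5, on log2(value + 1). *N4bp2* was 12.5, 17.5 and 12.7 in control, 17.2, 11.5 and 43.5 in compound KO and 50.1, 40.0 and 42.3 in double KO libraries. *Ehbp1* was 2.0, 1.3 and 2.5, then 5.5, 3.4 and 15.3, then 17.8, 15.7 and 16.2. Both genes were picked for their likeness to *Camsap1*, so the place of compound KO replicate 3 near the double KO libraries in them is part of that choice. *Chd2* moved by far less, from 72.2 to 79.9 over all libraries. The genes most unlike *Camsap1* were *Mvp* (−0.942), *Cnot8* (−0.905) and *Mettl10* (−0.902), and *Cnot8* averaged 21.1 ± 9.37 (SD, n = 3) in control and 4.93 ± 2.30 in double KO libraries. These correlations are descriptions over 9 libraries that share their genotype groups.

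**Figure D3:**
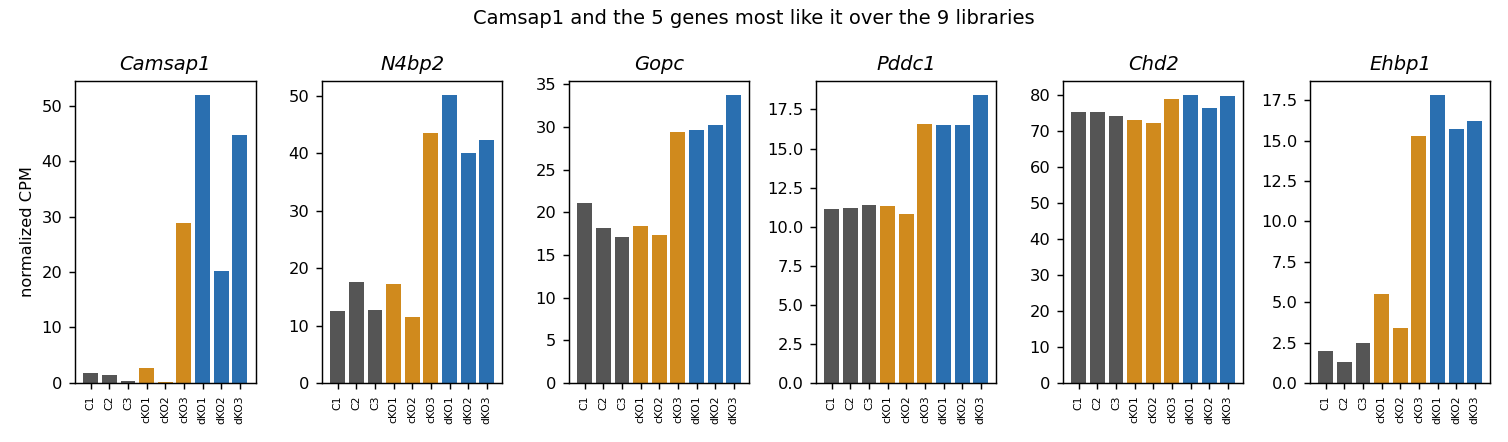
Normalized CPM (linear axes from 0, one scale per gene) of *Camsap1* and the 5 genes with the highest correlation to it in control (C), compound KO (cKO) and double KO (dKO) libraries 1 to 3. Compound KO replicate 3 has 28.9 of *Camsap1* and 43.5 of *N4bp2*, against at most 2.7 and 17.2 in the other compound KO libraries.

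The members were read against 8 lists of microtubule genes, of which 122 genes other than *Camsap1* were tested. In double KO against control lenses 1 was called, *Wdr47*, 2 higher (*Wdr47* and *Map1a*) and 3 lower (*Tuba4a*, *Pcnt* and *Katnal2*) passed the unadjusted threshold, beside 0.361% of all entries called and 2.83% past the unadjusted threshold, and the median log2 fold change was −0.015 beside 0.011 over all entries. In compound KO against control lenses 0 were called, 7 higher and 0 lower passed the unadjusted threshold, beside 5.34% of all entries, and the median was 0.015 beside 0.016. When double KO was compared with compound KO, 0 were called, 0 higher and 1 lower (*Dcx*) passed the unadjusted threshold, beside 3.06% of all entries, and the median was −0.03 beside −0.005. *Tuba4a* and *Dcx* are named here after their values were seen.

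*Wdr47* encodes a WD-repeat protein that binds Camsap proteins. It was 3.1, 1.9 and 2.7 in control, 12.0, 13.3 and 3.2 in compound KO and 10.7, 10.3 and 12.2 in double KO libraries, and rose by 1.77 ± 0.16 on the log2 scale in double KO against control lenses (adjusted p = 0.0228, limma). All double KO libraries lay above all control libraries, beside 15.8% of all entries without overlap, and compound KO replicate 3 lay near the controls. The call was held in 7 of 14 alternative settings, with adjusted p between 0.0192 and 0.434 by limma, and was lost when any 1 double KO library, control replicate 1 or control replicate 3 was left out. The entry without a symbol that offset *Wdr47* most over the 9 libraries was 7.6, 8.6 and 7.0 in control, 5.0, 0.0 and 7.0 in compound KO and at 0 in all double KO libraries, with a ratio of 0.478 that 60.3% of genes matched. Without compound KO replicate 1 that entry had a ratio of 0.246 and another entry the lowest, 0.227, which 2.94% of genes matched. The sum with the first was 10.7, 10.5 and 9.7, then 17.0, 13.3 and 10.2, then 10.7, 10.3 and 12.2, and its log2 fold change in double KO lenses was 0.09.

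Of the other minus-end binding and severing genes, the katanin-like *Katnal2* was 21.9, 21.9 and 18.2 in control and 8.2, 17.8 and 8.9 in double KO libraries, with a log2 fold change of −0.85 ± 0.29 (adjusted p = 0.420, limma). The tubulins had 15 of 20 genes tested, 0 called in double KO lenses and a median of −0.09. Among those with a mean of at least 10 in a group, the extremes were *Tuba1b* and the neuronal beta-tubulin *Tubb3*, which differed by 0.34 ± 0.76 in double KO (adjusted p = 0.925, limma) and by 2.68 ± 1.07 in compound KO lenses (adjusted p = 0.481, limma). The 22 genes of the gamma-tubulin ring complex and augmin had a median of 0.04, with *Tubgcp3*, a core subunit, at 0.69 ± 0.36 (adjusted p = 0.622, limma). *Pcnt*, the pericentriolar scaffold that holds such complexes, was 21.1, 3.9 and 21.6 in control, 0.0, 23.1 and 1.0 in compound KO and 4.3, 1.0 and 1.4 in double KO libraries, and its 1 low control library overlapped the double KO range.

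Of 18 lattice-binding proteins and stathmins tested, 0 were called and the medians were −0.09 in double KO and 0.495 in compound KO lenses. *Map1a*, a lattice-binding relative of *Map1b*, was 33.6, 25.5 and 31.8 in control, 59.7, 50.4 and 54.8 in compound KO and 47.3, 40.8 and 51.4 in double KO libraries. Every knockout library of *Map1a* lay above every control library. Of all entries, 15.8% did not overlap between double KO and control libraries, and 23.9% between compound KO and control libraries. The *Map1a* differences of 0.60 ± 0.13 in double KO (adjusted p = 0.249, limma) and 0.84 ± 0.13 in compound KO lenses (adjusted p = 0.312, limma) did not pass the test. *Tppp3*, which bundles microtubules, lay between 33.0 and 42.9 in control and between 24.3 and 27.5 in all knockout libraries, with differences of −0.43 ± 0.11 (adjusted p = 0.313, limma) and −0.47 ± 0.13 (adjusted p = 0.481, limma). *Stmn3*, a neuronal tubulin-sequestering protein, was 51.9 in compound KO replicate 1 and at most 7.9 elsewhere.

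Plus-end tracking genes (16 tested, median −0.10), tubulin folding genes (20 tested, median −0.015), tubulin modification genes (15 tested, median 0.00) and spectrins and calmodulins (5 tested, median −0.12) had 0 genes called in double KO lenses. *Cct3*, a subunit of the chaperonin that folds tubulin, lay between 304.0 and 313.9 in control and between 192.6 and 290.5 in all knockout libraries, with a difference of −0.19 ± 0.05 in double KO lenses (adjusted p = 0.351, limma). *Sptbn1*, a beta-spectrin, lay between 1518.7 and 1674.9 in control and between 1294.5 and 1370.3 in double KO libraries, with a difference of −0.26 ± 0.06 (adjusted p = 0.231, limma). Such a lack of overlap with control was found for 15.8% of all entries in double KO and 23.9% in compound KO libraries. *Vash1*, whose product removes the C-terminal tyrosine of alpha-tubulin, differed by −0.01 ± 0.18 in double KO (adjusted p = 0.995, limma) and 0.87 ± 0.40 in compound KO lenses (adjusted p = 0.481, limma), with 44.6 in compound KO replicate 1 and at most 17.7 elsewhere.

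**Figure D4:**
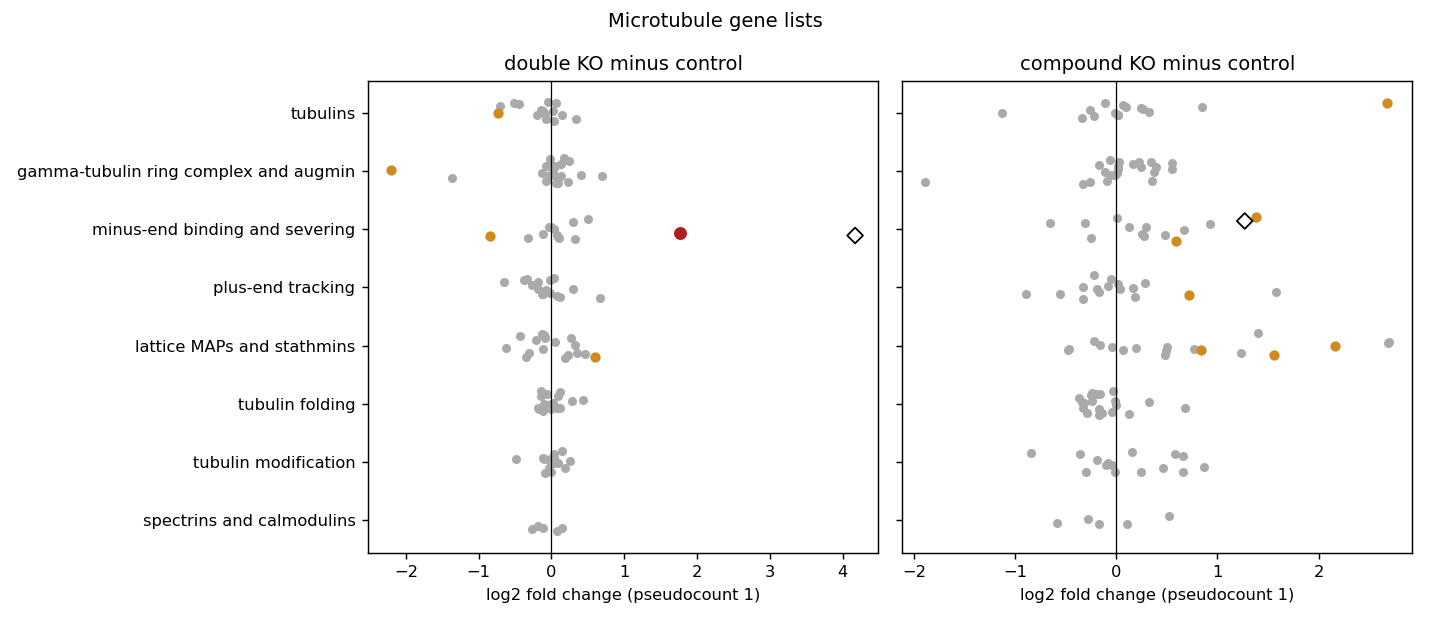
Log2 fold change (on log2 of the value plus 1) of each tested gene of 8 microtubule lists in double KO and compound KO against control lenses. Grey points did not pass, orange points passed the unadjusted threshold (p no larger than 0.05 with a 1.5-fold change), the red point is *Wdr47* (1.77, called) and the open diamond is *Camsap1* (4.17 and 1.27, not tested); the vertical line marks 0.

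The sum of 11 markers of neurons and neural retina that are in none of the microtubule lists was 683.6 in compound KO replicate 1, 213.7 in replicate 2 and 110.6 in replicate 3, against 33.8 to 97.3 in control and 41.6 to 143.0 in double KO libraries. *Map1b* and *Tubb3* were lowest in the 2 libraries with the smallest sums and highest in the 2 with the largest. *Tubb3*, which is itself a listed neural marker, went from 7.3 in control replicate 2 to 467.6 in compound KO replicate 1. *Tubb5* was also highest in the 2 libraries with the largest sums, but it was lowest in double KO replicate 3 (603.2). *Tubb2b* was lowest there too (41.6), and was 88.0 in compound KO replicate 2 against 97.4 in double KO replicate 1. *Camsap1* was 2.7 in the library with the largest sum and 51.9, 20.2 and 44.8 in double KO libraries with sums of 143.0, 41.6 and 74.5. The part of neural RNA in the values of *Camsap1*, *Tubb2b*, *Map1b*, *Tubb5*, *Camsap2* and *Camsap3*, and that of lens, erythroid, mesenchymal and muscle RNA in the knockout values, was not tested.

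**Figure D5:**
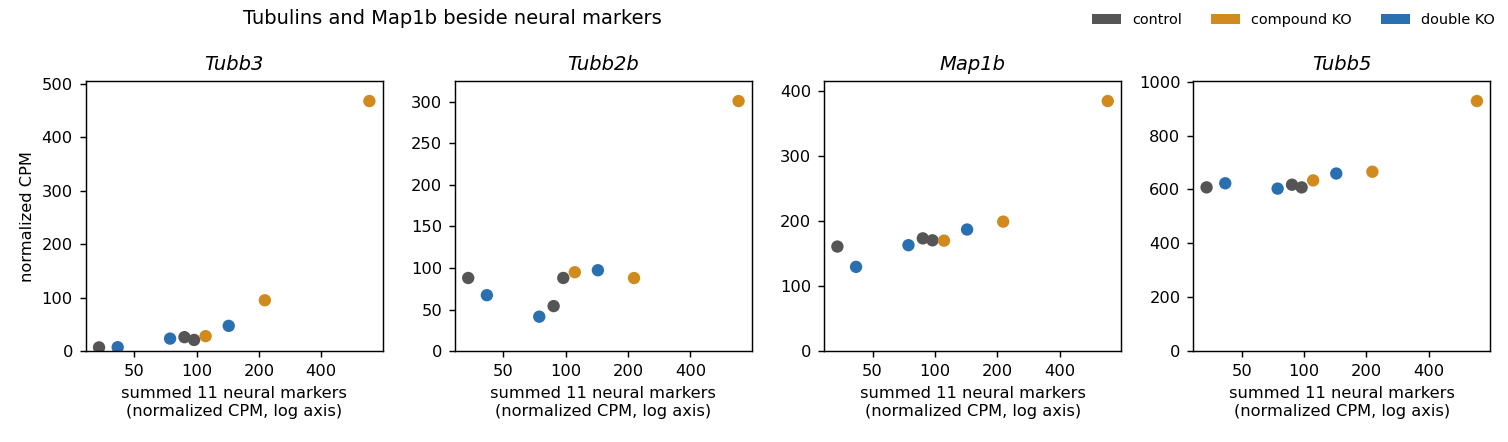
Normalized CPM of *Tubb3*, *Tubb2b*, *Map1b* and *Tubb5* (linear axes from 0) against the summed normalized CPM of 11 neural markers (log axis), 1 point per library, coloured by genotype. Compound KO replicate 1, at a sum of 683.6, holds the highest value in all 4 panels.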

How the data were processed

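Strand-specific paired-end reads were, per the labels and the paper's methods, trimmed with Trimmomatic, aligned to mm39 with HISAT2 and assembled with StringTie into transcript-level counts, which the authors imported in edgeR. The labels also name Cufflinks among the processing tools. The deposited values are a signal, CPM that the authors normalized and rounded to 1 decimal. Whole reads could not be recovered, so depth is unknown, no counting error is given and a count test was not used. Whether counting used strand is not given in the sources used here.

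The members and lists were chosen with earlier results of these data known. Tests were run in limma 3.58.1 (R 4.3.3), two-sided with an intensity trend, on log2(value + 1) of the entries with a symbol that reached 1 in 2 or more of the 6 libraries compared, with Benjamini-Hochberg adjustment over all entries tested. Calls needed an adjusted p no larger than 0.05 and a 1.5-fold change. Fold changes on this scale understate the change of low genes. The test was also run on simulated data with independent noise that was neither rounded nor floored. That run cannot show how the test behaves for entries near 0 or for entries that trade places. Libraries were grouped by the genotype in the labels, and the 3 pairs of genotypes were fitted separately. The labels call the libraries biological replicates, and p-values measure the spread between these pools of lenses.

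Named genes are the members, called list genes, the largest positive and negative change per list among genes with a mean of at least 10 in a group, and the 5 most and 3 least like *Camsap1*. Positions, transcript lengths and coding sequences are from GENCODE M39 and promoters from RefSeq, both on GRCm39. Tables were made with Python 3.11.15, pandas 2.3.3 and numpy 2.4.6. Sums with an entry without a symbol and values without compound KO replicate 1 in the search for such entries were chosen after seeing the data. The other alternatives were upper quartile and library size scaling, no filter, a stricter filter, a pseudocount of 0.1, one fit of the 9 libraries, a replicate block, summing of entries with the same symbol, no fold change threshold, no adjustment of p and each library left out in turn. One listed gene is not reported here. The authors' RT-qPCR and staining data were not used here. The paper reports *Camsap1* as raised in double KO lenses by RT-qPCR.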

Additional observations from a re-analysis of the deposited data

How the results depend on the processing

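In double KO against control lenses, the count of genes called (51) was 21 in one fit of the 9 libraries, 400 without adjustment and 22 to 47 with 1 library left out; the list genes called other than *Camsap1* (1) were 0 in the 9-library fit, 5 without adjustment and 0 to 1 with 1 library left out. In compound KO against control lenses, the count of genes (0) was 2 in the 9-library fit, 766 without adjustment and 0 to 13 with 1 library left out, members 1 and list genes 7 without adjustment. For double KO against compound KO, the count of genes (2) was 0 when each library had to reach 1, 1 with a pseudocount of 0.1, 5 in the 9-library fit, 440 without adjustment and 1 to 6 with 1 library left out, and list genes 1 without adjustment. The *Camsap1* log2 fold change was 5.11 with a pseudocount of 0.1, 0.15 with the entry added and 3.84 to 4.58 with 1 library left out.

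Replicate numbers were not used as pairs, since same-numbered libraries correlated by −0.106 to 0.216 after removal of group means. With the replicate number as a block, 10 genes were called in double KO against control and 0 in double KO against compound KO lenses, list genes 0, and *Wdr47* had an adjusted p of 0.167 by limma.

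Scaling by library size only moved the median of all genes by 0.06, 0.23 and −0.17 in the 3 comparisons, and genes past the unadjusted threshold from 225 higher and 175 lower to 281 and 137, from 547 and 219 to 748 and 91, and from 123 and 317 to 67 and 332. Under it these changed sign: *Tuba1a* 0.02, *Nin* 0.04, *Cct8* 0.06 and *Vash1* 0.06 (double KO against control); *Clip3* 0.19, *Agtpbp1* 0.15, *Ttll5* 0.16 and *Mafk* 0.01 (compound KO against control); *Tubg1* −0.14, *Tubgcp3* −0.04, *Tppp3* −0.14 and *Cct3* −0.01 (double KO against compound KO). *Pcnt* became 0.50 with a pseudocount of 0.1 in the last comparison, and *Tuba1b* with the entry added 0.08, 0.34 and −0.26. With 1 library left out, the log2 fold change crossed 0 for uncalled genes, with these ranges. In double KO against control lenses they were *Tuba1a* −0.11 to 0.01, *Tuba1b* −1.37 to 0.16, *Tubb2b* −0.49 to 0.11, *Map1b* −0.21 to 0.05, *Tubb3* −0.24 to 1.01, *Nin* −0.19 to 0.17, *Clip3* −0.07 to 0.49, *Dctn1* −0.63 to 0.01, *Dst* −0.66 to 0.38, *Tcp1* −0.06 to 0.71, *Cct8* −0.13 to 0.06, *Vash1* −0.19 to 0.13 and *Ttll4* −0.12 to 0.33. In compound KO against control lenses they were *Tuba1a* −0.02 to 0.18, *Tubg1* −0.02 to 0.04, *Dctn1* −0.28 to 0.42, *Tcp1* −0.39 to 0.39 and *Ttll5* −0.13 to 0.00. For double KO against compound KO they were *Tuba1b* −0.24 to 1.30, *Tubg1* 0.00 to 0.10, *Wdr47* −0.18 to 0.70, *Tubgcp3* −0.18 to 0.64, *Pcnt* −1.24 to 1.06, *Katnal2* −0.71 to 0.15, *Clip3* −0.01 to 0.54, *Apc* −2.05 to 0.65, *Ttll5* −0.06 to 0.04 and *Sptbn1* −0.02 to 0.53. The causes were not tested. Of 1401 values of single genes, 1327 kept direction and call. Among these genes only *Wdr47*, *Mafg* and *Mafk* were called with the main settings, in double KO against control lenses. For all other results, keeping the call meant staying uncalled. Calls were lost in 13 values and gained in 2, and the sign changed in 58.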

Other observations

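Several microtubule genes had 1 library far from the others of its genotype. *Apc*, which binds plus ends, reached 75.4 in compound KO replicate 2 and lay between 0.6 and 8.3 in the 8 other libraries. *Clip3*, a CAP-Gly protein, was 47.0 in double KO replicate 1 and between 20.3 and 24.2 elsewhere. *Cct8*, a chaperonin subunit, was 247.1 in compound KO replicate 2 and between 73.9 and 126.3 elsewhere, and *Tcp1* was 180.4 in control replicate 1 and 528.4 and 498.0 in the other controls. *Dctn1*, the large dynactin subunit, was 121.4, 59.2 and 49.9 in the control libraries. None of these was called by limma in any of the 3 comparisons.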
